A study of Mus musculus with 6 samples.

Results

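The lysosomal hydrolases and membrane proteins are 40 of the 55536 genes of the annotation, chosen by name for their place in the lysosome. The choice was made with earlier results of these data known, so the set as a whole was not tested. They comprise 10 proteases, 11 glycosidases, 5 sulfatases, 7 lipid enzymes or soluble cofactors and 7 membrane proteins. RNA came from RAW264.7 cells, a mouse macrophage line. C57BL/6 is given as its background strain, an entry that was not checked here. The 3 control libraries (Ctrl) came from cells given PBS and the 3 others (Ti) from cells given titanium particles, the metal debris that implants can shed. The labels used here state neither the dose nor how long the cells were exposed. All 6 libraries came from 1 line. The labels do not say whether they were grown as separate cultures, and the p-values therefore reflect only library-to-library spread, which may be technical.

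The lysosome is the acidic compartment in which macrophages break down what they engulf. Its hydrolases are made in the endoplasmic reticulum, tagged with phosphomannose and carried to the lysosome by sorting receptors; proteases, glycosidases, sulfatases and lipases then act in sequence on proteins, glycans and lipids, while membrane proteins protect the compartment, export products and set its ion balance. Many of these genes share the E-box CACGTG in their promoters, the core of the element bound by the transcription factors TFEB, TFE3 and MITF. Metal particles cannot be degraded by these enzymes, and lysosomal damage is a known response of macrophages to particles in general.

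A minority of the promoters held the E-box. In RefSeq promoters (GRCm38.p6; 250 bases before to 50 after the gene start) 35 of the 40 genes were found, and 13 of the 35 (37.1%) held CACGTG, against 8.09% of the 27025 genes in the table. The motif reads the same on both strands. The longer TCACGTGA, which contains the shorter motif, was in 5 of the 35 (14.3%) against 1.12% of all genes. Promoters of these genes were richer in G and C, with a median of 56.7% against 52.7%. A match describes the letters only and is not evidence of binding. The 5 genes with TCACGTGA held 7 copies, shown here in windows of 30 bases on the gene's strand, with the motif in capitals (plus strand for Ctsa and Mcoln1, minus strand for Cln3, Ctsd and Gla), because this longer motif was the rarest of those searched.
Cln3 chr7:126583340-126583369: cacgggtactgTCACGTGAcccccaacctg
Ctsa chr2:164833749-164833778: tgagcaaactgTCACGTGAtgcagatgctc
Ctsa chr2:164833766-164833795: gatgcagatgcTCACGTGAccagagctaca
Ctsd chr7:142387908-142387937: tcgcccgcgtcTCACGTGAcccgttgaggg
Gla chrX:134601215-134601244: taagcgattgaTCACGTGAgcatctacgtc
Gla chrX:134601182-134601211: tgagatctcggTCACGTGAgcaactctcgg
Mcoln1 chr8:3500462-3500491: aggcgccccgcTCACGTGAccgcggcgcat
Lamp1 held the largest number of CACGTG copies, 4, all within the 250 bases before its start (GRCm38.p6, chr8:13158911-13159160, plus strand), printed with CACGTG in capitals.
Lamp1: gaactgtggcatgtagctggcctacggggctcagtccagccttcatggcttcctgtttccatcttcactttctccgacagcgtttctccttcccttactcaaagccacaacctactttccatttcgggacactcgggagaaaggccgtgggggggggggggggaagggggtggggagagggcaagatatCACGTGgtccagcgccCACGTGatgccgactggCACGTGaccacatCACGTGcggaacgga
The bases upstream of Mcoln1 (chr8:3500269-3500456, plus strand) held 1 further CACGTG; the TCACGTGA copy shown above lies downstream of this stretch.
Mcoln1: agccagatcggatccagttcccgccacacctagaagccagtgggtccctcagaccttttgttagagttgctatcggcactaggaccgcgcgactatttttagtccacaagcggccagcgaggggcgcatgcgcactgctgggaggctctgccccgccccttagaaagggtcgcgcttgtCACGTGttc
Atp13a2, the gene with the smallest p of the 40, held none in its promoter; the bases upstream of its first annotated exon (chr4:140986671-140986872, plus strand) are shown for contrast.
Atp13a2: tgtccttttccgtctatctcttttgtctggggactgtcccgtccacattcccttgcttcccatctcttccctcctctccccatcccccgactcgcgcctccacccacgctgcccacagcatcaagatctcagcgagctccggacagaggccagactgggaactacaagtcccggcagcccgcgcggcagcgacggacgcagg
The 13 genes with CACGTG had a median log2 fold change (Ti over control) of 0.0023, with 7 positive and 6 negative. The 22 matched genes without it had a median of -0.13, with 8 positive and 14 negative. The difference between these sets was not tested.

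Values are normalised rescaled counts scaled to a common library total of 1e+06 (CPM), and levels of different genes are compared per length, as TPM, the same kind of value after division by exon length. The annotated transcripts summed to between 37686020 and 60242937 rescaled counts per library, and a rescaled count of 3, taken as the detection floor, equals 0.0498 to 0.0796 CPM. Rescaled counts are not reads, which makes this floor a rough one that covers counting error only. Where 3 values are given for a group, they are in the order of replicates 1, 2 and 3. Of 9 macrophage markers, 8 stood at 1 CPM or more in every library; the other, Mertk, was at most 0.129 CPM. Summed, they ran from 5484 to 7271 CPM in control and from 6740.0 to 8586 CPM with Ti. Of 20 markers of fibroblasts, epithelial cells, T cells, B cells and neutrophils, 13 were at 0 in all 6 libraries, and no list summed to more than 0.563 CPM. In bulk RNA fewer cells of a kind and less RNA per cell cannot be told apart. Assembled transcripts without a gene held 36.9% to 51.2% of the deposited totals, so part of a gene's RNA may be outside its annotated rows.

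The lysosomal genes ranged widely in level, and none passed the adjusted threshold of the main test between the groups. All 40 passed the filter on low counts; 17 averaged over 100 CPM and 2, Ctsh and Ppt1, under 5 CPM. Per length, the cathepsin genes Ctsd (mean 399 TPM, range 148 to 524) and Ctsz (390.4, range 336 to 489.7) came first. Lamp1 (335 TPM, range 256 to 370.5), Ctsb (301) and Ctss (291) followed, with ranges that overlap those of the leaders. At the lower end stood Ctsh (0.489 TPM), Ppt1 (0.744), Idua (4.60) and Npc1 (5.72).

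**Figure D1:**
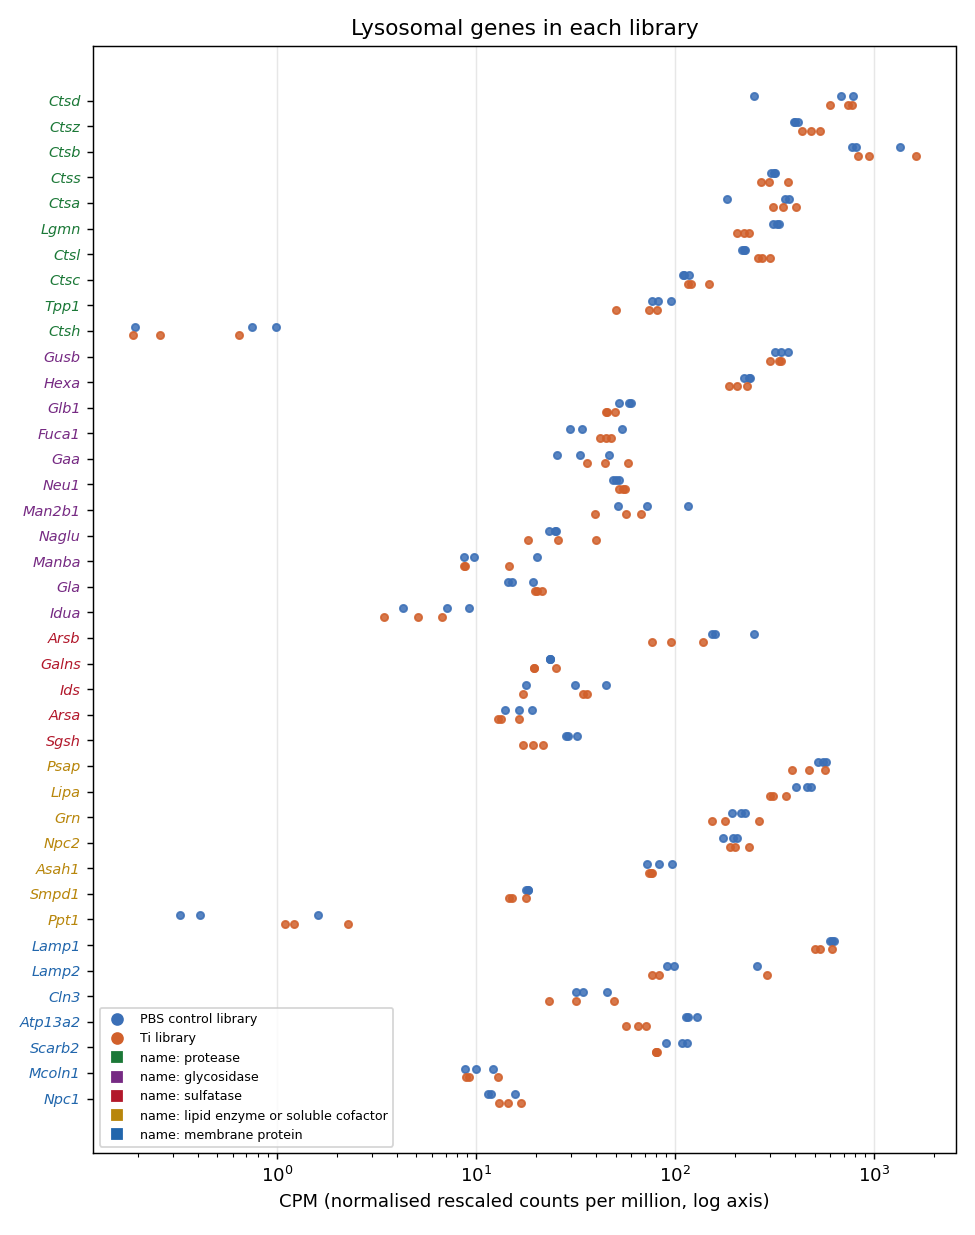
CPM of the 40 lysosomal genes in each of the 6 libraries, on a log axis, ordered within each class by level per length. Blue points are PBS control libraries and orange points Ti libraries. Ctsh and Ppt1 lie near 1 CPM or below, and Atp13a2, Lgmn and Arsb have all Ti points to the left of all control points.

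With edgeR's quasi-likelihood test over 15376 genes, 0 of the 40 passed a Benjamini-Hochberg adjusted p of 0.05, against 4 genes in all (0.0260%, or 0.0130% in each direction). At an unadjusted p under 0.05 there were 9 of 40, 2 higher and 7 lower with Ti, beside 6.76% of all genes tested (3.42% higher and 3.34% lower). The 3 libraries of one group lay outside the range of the other for 12 of 40, 4 higher and 8 lower, against 13.3% of all genes (6.63% higher and 6.71% lower). Among genes averaging at least 5 CPM, to which 38 of the 40 belong, 14.7% did not overlap and 7.72% had an unadjusted p under 0.05. DESeq2 called 3 of 40 lower, Atp13a2, Lgmn and Sgsh (0.844% of its genes were called lower) and 0 higher (1.07%), and limma's voom called 0 (0.0650%). With the replicate number as a block 0 passed, and 13 of 40 had an unadjusted p under 0.05, against 9.37% of all genes.

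The median log2 fold change of the 40 was -0.10, with 17 positive and 23 negative, beside 0.0053 over all genes tested, of which 50.9% were positive. With protein-coding rows only the median turned to 0.024, over the 38 of the 40 tested there. Ctsh and Manba, both negative in the main fit, were not among them. Proteases had a median of 0.20 with 7 of 10 positive, and sulfatases -0.22 with 0 of 5 positive. Glycosidases stood at -0.076 with 5 of 11 positive, lipid enzymes and cofactors at -0.15 with 2 of 7, and membrane proteins at -0.097 with 3 of 7. Differences between the classes were not tested.

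**Figure D2:**
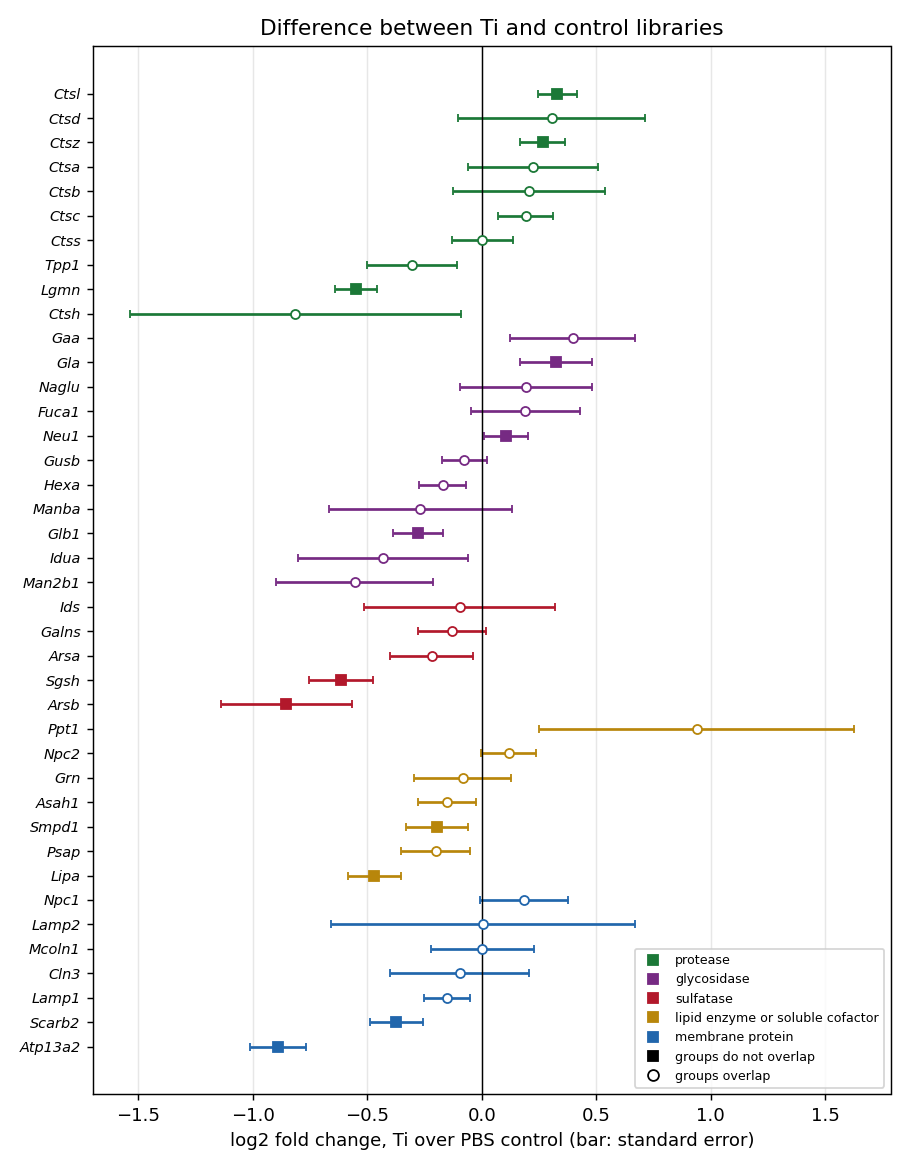
Log2 fold change of Ti over control for each lysosomal gene, with its standard error, coloured by class. Filled squares are the 12 genes whose groups did not overlap; the values run from -0.89 for Atp13a2 to 0.94 for Ppt1.

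The protease with the smallest p was Lgmn (ENSMUSG00000021190, GRCm38 chromosome 12, 102394084 to 102439813, minus strand), the asparaginyl endopeptidase that trims other lysosomal proteases. The control libraries held 325, 331 and 311 CPM of Lgmn, and the Ti libraries held 222, 203 and 235 CPM. Every Ti library was below every control library. The means were 322 ± 10.3 CPM in control and 220.1 ± 16.3 CPM with Ti (± SD, n = 3 each), and the log2 fold change was -0.55 ± 0.09 (SE). Its unadjusted edgeR p was 0.000838 and its adjusted p 0.218, while DESeq2 gave an adjusted p of 0.000414.

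Most cathepsin genes had positive log2 fold changes as reported, and none passed the adjusted threshold. The log2 fold change of Ctss was 0.0016, and the signs of Ctsa, Ctsb, Ctsd and Ctss turned under some alternative. Ctsl, a cysteine endopeptidase, stood at 220.4, 217 and 223 CPM in the control libraries and at 261, 272 and 297 CPM in the Ti libraries. Its 3 Ti values all exceeded the controls, with a log2 fold change of 0.33 ± 0.09 (SE) and an edgeR adjusted p of 0.458 (unadjusted 0.00815). For Ctsz, a carboxypeptidase, the control libraries gave 412, 398 and 392 CPM and the Ti libraries 482, 434 and 530.2 CPM, again without overlap, with a log2 fold change of 0.27 ± 0.10 (SE). Ctsc, the dipeptidyl peptidase that activates granule proteases, stood at 117, 109.6 and 109.8 CPM in the control libraries and at 120.4, 116 and 148 CPM in the Ti libraries, so Ti replicates 1 and 2 lay close to control and the groups overlapped. Its log2 fold change was 0.19 ± 0.12 (SE).

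The abundant cathepsins Ctsb and Ctsd were uneven between libraries of the same group. The control libraries held 811, 775 and 1348 CPM of Ctsb, a cysteine protease, and the Ti libraries held 942, 826 and 1622 CPM. The libraries numbered 3 were the highest of both groups, and within each replicate number Ti was above control. The log2 fold change was 0.21 ± 0.33 (SE), and 0.19 with the replicate number as a block (edgeR adjusted p 0.525, unadjusted 0.0458). It became -0.14 without Ti replicate 3, which leaves control replicate 3 without its partner. Ctsd, the main aspartic protease, stood at 247, 678 and 779.5 CPM in the control libraries and at 595, 737 and 774 CPM in the Ti libraries. Control replicate 1 stood apart, and without it the log2 fold change of 0.31 ± 0.41 (SE) became -0.056. The other 4 proteases, Ctsa, Ctsh, Ctss and Tpp1, had overlapping groups and log2 fold changes from -0.81 (Ctsh, at 0.188 to 0.985 CPM) to 0.22 (Ctsa).

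Glycosidases, which strip sugars from glycoproteins and glycolipids, showed small differences of both signs. Glb1, the beta-galactosidase used as a senescence stain, stood at 59.6, 58.3 and 51.8 CPM in the control libraries and at 49.6, 45.0 and 45.2 CPM in the Ti libraries. The Ti values lay below the controls, with a log2 fold change of -0.28 ± 0.11 (SE) and an edgeR adjusted p of 0.731. For Gla, alpha-galactosidase A, the control libraries gave 14.5, 15.2 and 19.2 CPM and the Ti libraries 20.3, 21.3 and 19.6 CPM. These groups did not overlap either, in the opposite direction, with a log2 fold change of 0.33 ± 0.16 (SE), although control replicate 3 came within 1 CPM of the lowest Ti library. Hexa, the alpha subunit of beta-hexosaminidase, stood at 238, 222 and 235 CPM in the control libraries and at 203, 187 and 228 CPM in the Ti libraries, with Ti replicate 3 inside the control range and a log2 fold change of -0.17 ± 0.10 (SE). Man2b1, an alpha-mannosidase, stood at 51.5, 116 and 72.0 CPM in the control libraries and at 67.0, 56.7 and 39.3 CPM in the Ti libraries. Control replicate 2 was the high value, and the log2 fold change of -0.56 ± 0.34 (SE) was -0.19 without it. The other 7 glycosidases ran from -0.43 (Idua, which acts on heparan and dermatan sulfate) to 0.40 (Gaa, which degrades glycogen), and of these Neu1, the sialidase, was without overlap with a log2 fold change of 0.11 ± 0.10 (SE). Neu1, Ids, Cln3 and Lamp2 are named here after their values were seen.

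All 5 sulfatases had negative log2 fold changes as reported, though the sign of Ids turned with limma's voom and without control replicate 3 or Ti replicate 3. The control libraries held 28.3, 31.9 and 28.9 CPM of Sgsh, which removes sulfate from heparan sulfate, and the Ti libraries held 21.6, 19.3 and 17.2 CPM. The groups were apart, with means of 29.7 ± 1.91 CPM in control and 19.4 ± 2.19 CPM with Ti (± SD, n = 3 each) and a log2 fold change of -0.61 ± 0.14 (SE). Its edgeR adjusted p was 0.397 (unadjusted 0.00445) and its DESeq2 adjusted p 0.0114. Arsb, which acts on dermatan and chondroitin sulfate, stood at 157, 152 and 248 CPM in the control libraries and at 95.4, 76.5 and 137 CPM in the Ti libraries. The libraries numbered 3 were the highest of each group, and the lowest control remained above the highest Ti value. Its log2 fold change was -0.85 ± 0.29 (SE), -1.11 to -0.59 with 1 library left out at a time, and its edgeR adjusted p 0.635. For Arsa, the sulfatide sulfatase, the control libraries gave 14.0, 16.4 and 19.0 CPM and the Ti libraries 13.4, 12.8 and 16.3 CPM, which overlap, with a log2 fold change of -0.22 ± 0.18 (SE) that was -0.0050 with protein-coding rows only. Galns, which acts on keratan sulfate, stood at 23.4, 23.5 and 23.4 CPM in the control libraries and at 19.5, 19.6 and 25.1 CPM in the Ti libraries, with Ti replicate 3 above all controls and a log2 fold change of -0.13 ± 0.15 (SE). Galns-203 was at 0 in the 3 control libraries and at 168, 256 and 245 rescaled counts with Ti. Of 141862 annotated rows, 64 were on/off in this way. Such rows had at most 1 rescaled count in every library of one group and at least 20 in every library of the other. Without Galns-203 the log2 fold change of Galns was -0.53. Leaving it out removed counts from the Ti libraries only, so -0.53 is no check on the value for the whole gene. Ids, the iduronate sulfatase, ran from 17.1 to 44.6 CPM with overlapping groups and a log2 fold change of -0.10 ± 0.42 (SE). Exons of 16 of the 40 genes overlap those of another gene, among them Sgsh, Arsb, Arsa, Ctsl, Ctsz, Glb1, Ctsb, Ctsd and Lamp1. Whether the authors' counting used strand is not stated, so reads of such neighbours may be mixed into these values. Ctsd, Glb1 and Ctsl each overlap a gene on the same strand, where strand could not separate the reads.

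Among lipid enzymes and cofactors, 2 of 7 had groups that did not overlap, beside 13.3% of all genes. Lipa, the acid lipase that frees cholesterol and fatty acids from lipoprotein lipids, stood at 482, 459 and 402 CPM in the control libraries and at 359, 299 and 311 CPM in the Ti libraries. All Ti values were below all control values, with a log2 fold change of -0.47 ± 0.12 (SE) and an edgeR adjusted p of 0.431 (unadjusted 0.00635); DESeq2 gave 0.114 after adjustment. For Smpd1, acid sphingomyelinase, the control libraries gave 18.3, 17.9 and 18.3 CPM and the Ti libraries 15.1, 14.7 and 17.7 CPM. These groups were apart by a narrow margin, with a log2 fold change of -0.20 ± 0.14 (SE). Psap, the precursor of the saposins that present lipids to their hydrolases, stood at 568, 549.5 and 519 CPM in the control libraries and at 471, 387 and 565 CPM in the Ti libraries. Ti replicate 3 lay within the control range, and the log2 fold change was -0.20 ± 0.15 (SE). For Ppt1, which removes palmitate from proteins, the control libraries gave 1.61, 0.324 and 0.407 CPM and the Ti libraries 2.25, 1.10 and 1.21 CPM, levels too low and uneven for its log2 fold change of 0.94 ± 0.69 (SE) to be read. The other 3, Asah1, Npc2 and Grn, had overlapping groups and log2 fold changes of -0.15, 0.12 and -0.08.

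The membrane proteins held the lowest log2 fold change of the 40. Atp13a2 (ENSMUSG00000036622, GRCm38 chromosome 4, 140986873 to 141007330, plus strand) encodes a P-type ATPase that moves polyamines out of the lysosome. The control libraries held 128, 116 and 113 CPM of Atp13a2, and the Ti libraries held 71.2, 56.2 and 64.9 CPM. A row annotated with a retained intron held most of its value in control. The Ti libraries were all far below the controls, with means of 119 ± 7.87 CPM in control and 64.1 ± 7.56 CPM with Ti (± SD, n = 3 each). Its log2 fold change was -0.89 ± 0.12 (SE), and -0.97 to -0.81 with 1 library left out at a time. The edgeR adjusted p was 0.157 (unadjusted 0.000316), and DESeq2's adjusted p was 4.62e-06. Scarb2, the receptor that carries glucocerebrosidase to the lysosome, stood at 114, 108 and 90.0 CPM in the control libraries and at 80.0, 80.3 and 80.4 CPM in the Ti libraries. The 3 Ti values were nearly equal and below each control, with a log2 fold change of -0.37 ± 0.12 (SE) and an edgeR adjusted p of 0.577.

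Lamp1, the abundant glycoprotein that lines the lysosomal membrane, stood at 629, 609 and 596 CPM in the control libraries and at 533, 505 and 614 CPM in the Ti libraries. Ti replicates 1 and 2 were below the controls and Ti replicate 3 among them, with a log2 fold change of -0.15 ± 0.10 (SE). For Npc1, which exports cholesterol, the control libraries gave 11.9, 11.4 and 15.6 CPM and the Ti libraries 14.4, 13.0 and 16.8 CPM, overlapping, with a log2 fold change of 0.18 ± 0.19 (SE). Mcoln1, the calcium channel mucolipin, stood at 9.94, 8.80 and 12.1 CPM in the control libraries and at 8.84, 9.16 and 12.9 CPM in the Ti libraries. Its log2 fold change was 0.0023 ± 0.23 (SE), the closest to 0 of the membrane proteins, and that standard error does not show the groups to be alike. The groups of Cln3 and Lamp2 overlapped too, with log2 fold changes of -0.10 ± 0.30 (SE) and 0.0048 ± 0.66 (SE). Lamp2 ranged from 76.3 to 289 CPM, high in control replicate 2 and Ti replicate 3.

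Over these genes taken as a set, the medians of the 3 Ti libraries were spread more widely than those of the 3 control libraries. This difference in spread was not tested. For each of the 38 genes averaging at least 5 CPM, the log2 CPM in a library was set against the gene's mean over the 6 libraries. The median deviation was -0.015, 0.077 and 0.11 in control replicates 1, 2 and 3, and -0.10, -0.19 and 0.17 in Ti replicates 1, 2 and 3. Ti replicate 3 had the highest median of all and Ti replicate 2 the lowest. The same measure over 9706 genes lay between -0.00087 and 0.023 in every library. Normalisation centres the bulk of genes, so that range is no yardstick for a median of 38 genes. Summed over the 40 genes, levels per length were 3284, 3668 and 4276 TPM in control and 3826, 2977 and 4633 TPM with Ti, which overlap. Without Ti replicate 3 the median log2 fold change of the 40 genes was -0.24.

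**Figure D3:**
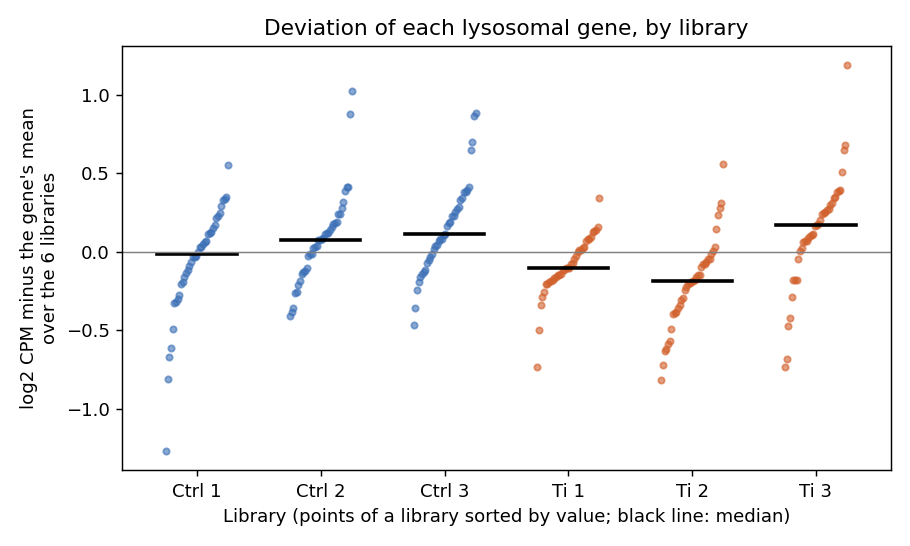
Deviation of log2 CPM from the gene's mean over the 6 libraries, for the 38 lysosomal genes averaging at least 5 CPM; each point is a gene and each black line a library's median. The medians run from -0.19 in Ti replicate 2 to 0.17 in Ti replicate 3, with control libraries between.

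Transcript rows showed where a gene's value came from. For 19 of the 40 genes 1 row held at least 90% of the value, including Lgmn (Lgmn-201), Sgsh (Sgsh-201), Arsb, Ctsl, Ctsz, Scarb2 and Lamp1. For 7 genes, Tpp1, Manba, Idua, Arsa, Asah1, Ppt1 and Atp13a2, the leading row was annotated as something other than protein-coding. Atp13a2-206, annotated with a retained intron, held 87.5%, 85.5% and 78.4% of the gene in control. Its share with Ti was 20.5%, 82.2% and 32.2%. Protein-coding rows of Atp13a2 stood at 1.85, 2.06 and 2.23 CPM in control and at 49.2, 2.12 and 27.5 CPM with Ti, so Ti replicate 2 lay within the control range. They held 1.45%, 1.78% and 1.98% of the gene in control and 69.1%, 3.78% and 42.4% with Ti. With protein-coding rows alone its log2 fold change was 3.71, at an edgeR adjusted p of 0.501, so the sign of the Atp13a2 difference depends on which rows are counted. Ctsd-201 was at 0 in the 3 control libraries and in Ti replicate 2 and held 55.4% and 58.4% of Ctsd in Ti replicates 1 and 3, with Ctsd-202 holding nearly all the rest. No source used here states how reads were divided between overlapping rows.

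**Figure D4:**
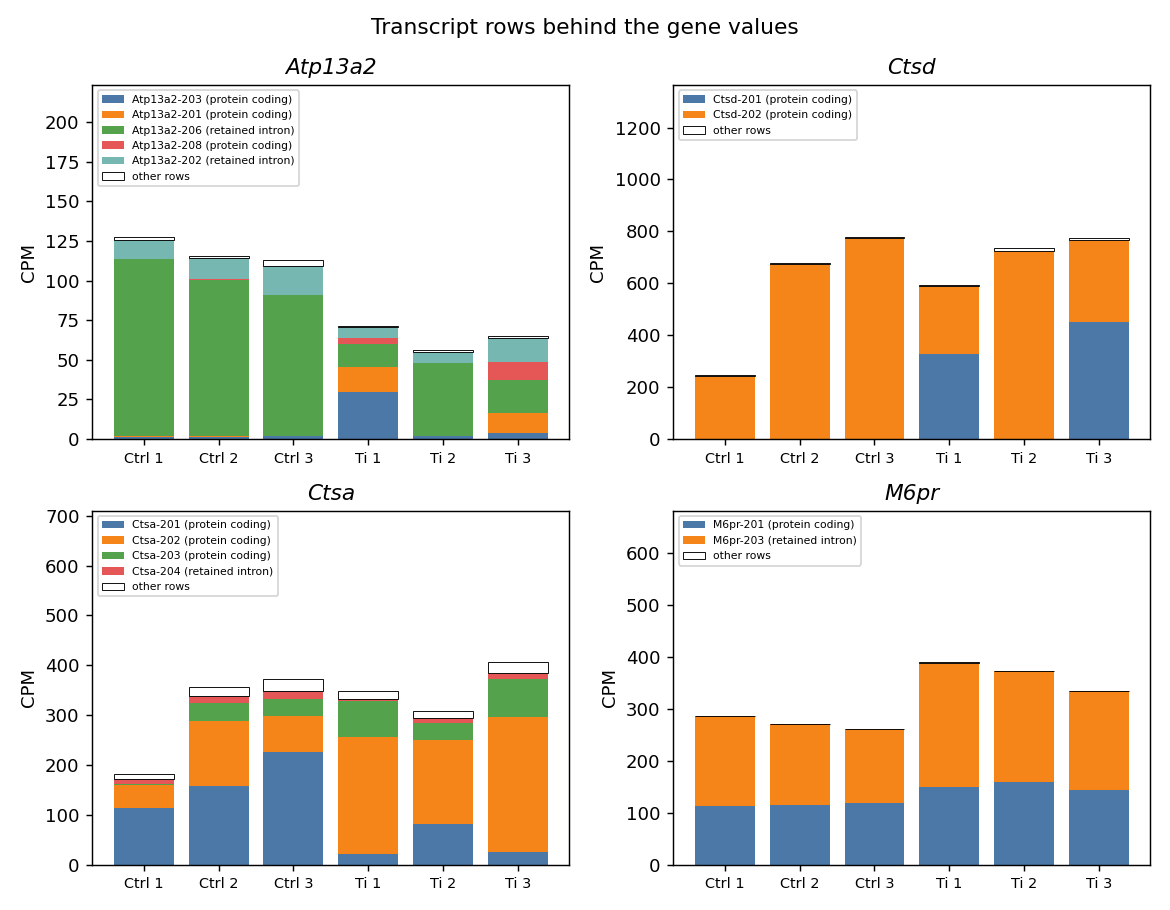
CPM of each transcript row holding at least 5% of its gene in some library, stacked by library, for Atp13a2, Ctsd, Ctsa and M6pr. The retained-intron row Atp13a2-206 dominates the control libraries and Ti replicate 2, and Ctsd-201 appears in Ti replicates 1 and 3.

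Other genes of the pathway were 49 by list, of which 48 were tested. Laptm4b was at 0 in all libraries. With edgeR 0 passed the adjusted threshold, and 7 (14.6%) had an unadjusted p under 0.05 (4 higher, 3 lower), beside 6.76% of all genes tested. The groups of 8 (16.7%) did not overlap, 4 higher and 4 lower, beside 13.3% of all genes. DESeq2 called 2 higher and 1 lower, where it called 1.07% of its genes higher and 0.844% lower; the median log2 fold change was -0.073. M6pr, a phosphomannose receptor that carries hydrolases from the Golgi, stood at 287, 270.2 and 262 CPM in the control libraries and at 389, 373 and 335 CPM in the Ti libraries. All Ti values exceeded all controls, with a log2 fold change of 0.42 ± 0.09 (SE), with adjusted p 0.363 in edgeR and 0.0277 in DESeq2. The retained-intron row M6pr-203 held 58.2% of M6pr in control and 58.6% with Ti. For Sort1, the sorting receptor sortilin, the control libraries gave 17.5, 15.3 and 15.5 CPM and the Ti libraries 9.46, 9.16 and 11.0 CPM. Every Ti value was below every control value here, with a log2 fold change of -0.70 ± 0.15 (SE), with adjusted p 0.355 in edgeR and 0.0015 in DESeq2. The retained-intron row Sort1-202 held 36.0% of Sort1 in control and 27.2% with Ti. With protein-coding rows only the log2 fold change of Sort1 was -0.46, at an unadjusted edgeR p of 0.131. The other 5 sorting genes overlapped between groups.

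Among membrane proteins outside the 40, Cd63 and Laptm5 had the smallest p. Cd63, a tetraspanin of late endosomes and lysosomes, stood at 69.0, 64.5 and 60.1 CPM in the control libraries and at 96.2, 93.1 and 86.0 CPM in the Ti libraries. The Ti values were all higher, with a log2 fold change of 0.51 ± 0.10 (SE), with adjusted p 0.307 in edgeR and 0.00404 in DESeq2. For Laptm5, a lysosomal membrane protein of blood cells, the control libraries gave 829.7, 765 and 747 CPM and the Ti libraries 619, 519 and 646 CPM, all lower, with a log2 fold change of -0.39 ± 0.11 (SE) and an edgeR adjusted p of 0.519. The hydrolases and cofactors outside the 40 gave no call. For Arsg, another sulfatase, the control libraries gave 0.297, 0.299 and 1.94 CPM and the Ti libraries 0.107, 0.134 and 0.104 CPM, low values, near the detection floor with Ti, whose log2 fold change of -2.85 ± 0.91 (SE) was -1.36 without control replicate 3.

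Of the 3 transcription factors of the TFEB family, 0 passed. Tfeb stood at 40.6, 8.18 and 32.2 CPM in the control libraries and at 11.0, 10.8 and 11.9 CPM in the Ti libraries. Control replicate 2 was below every Ti library while replicates 1 and 3 were well above, and the log2 fold change was -1.27 ± 0.55 (SE). For Tfe3, the control libraries gave 98.8, 75.2 and 110.4 CPM and the Ti libraries 98.9, 99.6 and 113 CPM, overlapping, with a log2 fold change of 0.13 ± 0.16 (SE). Mitf stood at 76.6, 68.4 and 47.0 CPM in the control libraries and at 90.7, 88.4 and 70.9 CPM in the Ti libraries, overlapping as well, with a log2 fold change of 0.38 ± 0.21 (SE). Within each replicate number the Ti value of Mitf was above control. With the replicate number as a block its edgeR adjusted p was 0.461 (unadjusted 0.0187). The unadjusted p of Tfeb and Tfe3 in that fit were 0.142 and 0.277. The inhibitors of cysteine cathepsins gave no call either. Cstb, which acts inside the cell, stood at 102, 113 and 91.4 CPM in the control libraries and at 126, 157 and 116 CPM in the Ti libraries, without overlap with a log2 fold change of 0.39 ± 0.15 (SE). For Cst3, the secreted cystatin C, the control libraries gave 237, 779.7 and 699 CPM and the Ti libraries 426, 215 and 455 CPM, a wide spread in both groups with a log2 fold change of -0.65 ± 0.50 (SE).

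**Figure D5:**
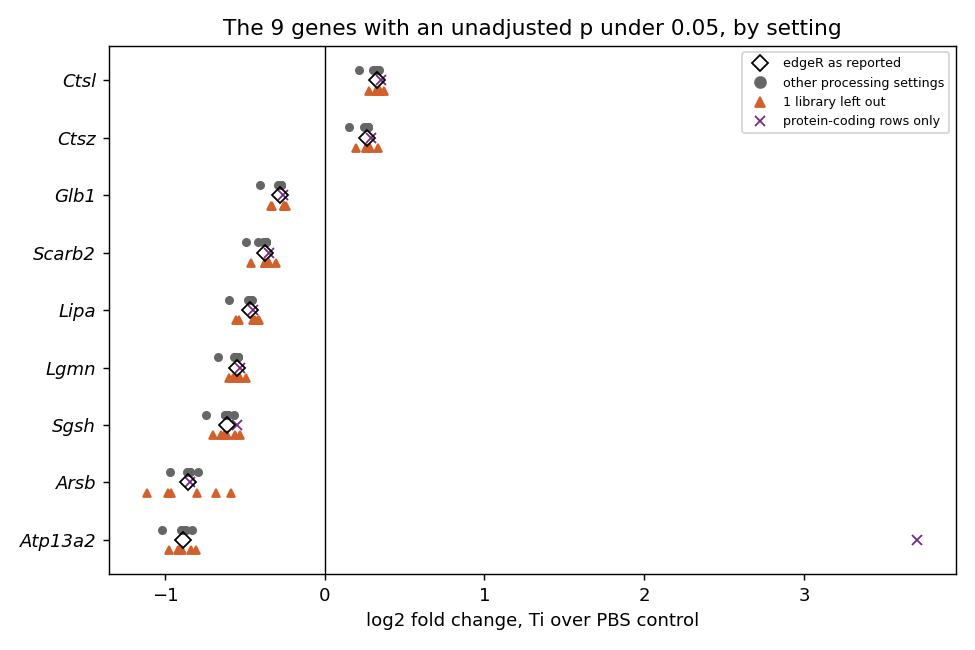
Log2 fold change of the 9 lysosomal genes with an unadjusted p under 0.05, as reported and under each alternative; triangles leave out 1 library and crosses use protein-coding rows only. The sign held for 8 of the 9 at every setting, and that of Atp13a2 changed with protein-coding rows only, to 3.71. The groups of all 9 did not overlap, so leaving out 1 library could hardly turn a sign. The triangles are therefore no check on direction.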

How the data were processed

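For each of 6 libraries the authors deposited 187351 whole-number estimated counts, 1 per transcript. The submitters' processing notes list HISAT2, StringTie and the build mm9, without versions; no source used here states the annotation or how counts were made. Of these, 141862 rows matched GENCODE vM21 (GRCm38) transcripts one for one, and names and coordinates are taken from it; 45489 assembled rows were left out. Because low values rose with genomic span (lower quartile of nonzero values from 3 to 407 over 9 bins of span over exon length), each row was scaled by the ratio of exon length to genomic span, and the rows of a gene were added and rounded. The same rows divided by exon length gave TPM. The planned count test was applied to these rescaled estimated counts. edgeR 4.0.16 (TMM, filterByExpr, quasi-likelihood, R 4.3.3) tested 15376 genes, with Benjamini-Hochberg adjustment at 0.05; the standard error is the log2 fold change divided by the square root of F. It was also tested on simulated data. DESeq2 1.42.0 and limma 3.58.1 were alternatives, with others on filters, scaling, rows and libraries. Same-numbered libraries deviated together (correlations across genes 0.110, 0.144 and 0.266), which by the rule used counts as pairing. This pairing comes from the data, not from the labels. The main fit left it out, and p-values and standard errors come from fits without a block unless the block is named. No libraries agreed within sampling noise. Genes given in full were, per class, the 4 with the smallest p, the 3 with the highest TPM and 5 fixed names, and of other lists the 2 with the smallest p and the TFEB family. 1 gene that this rule names is not reported here. Members and lists were chosen with earlier results of these data known. Plots were made with matplotlib 3.10.9.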

Additional observations from a re-analysis of the deposited data

How the results depend on the processing

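Across all genes, the counts called (2 higher, 2 lower) were 163 and 129 by DESeq2, 5 and 5 by voom, 0 and 0 with the replicate block, 0 and 1 without on/off transcripts, 1 and 1 with protein-coding rows only, 1 and 1 with deposited totals as library size, 2 and 1 with no filter, and 1 to 8 higher and 0 to 7 lower with 1 library left out. Of the 40 lysosomal genes DESeq2 called 3 lower, and of the further ones 2 higher and 1 lower; the counts were 0 under the other alternatives run, the replicate block included. The median log2 fold change of the 40 (-0.10) was 0.024 with protein-coding rows only, over the 38 genes tested there. It ranged from -0.24 (without Ti replicate 3) to -0.033 with 1 library left out. With deposited totals as library size the median of all genes moved to -0.11. The sign turned under at least 1 alternative for 15 of the 40 genes, 11 of them with 1 library left out and 9 under another setting. With protein-coding rows only these were Tpp1, Asah1, Cln3 and Atp13a2. Among genes given library by library, Atp13a2 was 3.71 with protein-coding rows only, Ctsd -0.056 without control replicate 1 (highest 0.61 with 1 library left out), Ctsb -0.14 without Ti replicate 3 (highest 0.51) and Tfe3 -0.013 without control replicate 2 (highest 0.26). Mcoln1, near 0, was -0.0079 with no filter, -0.028 by voom, -0.0071 with the block, -0.10 with deposited totals, and -0.19 to 0.14 with 1 library left out. The cause was not tested in any of these. Rescaled counts are not reads, so counting limits are approximate, and depth was lowest in Ti replicate 2.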

Other observations

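Some rows of genes not covered by the rule for named genes were chosen after their values were seen. Ctsa, the carboxypeptidase that protects beta-galactosidase and the sialidase, overlapped between groups as a gene, but its rows did not: Ctsa-201 held 62.5%, 44.4% and 60.9% of the gene in control replicates 1, 2 and 3 and 6.41%, 26.3% and 6.15% in Ti replicates 1, 2 and 3. Ctsa-202 held 25.1%, 36.4% and 19.4% in control and 67.4%, 54.8% and 66.7% with Ti. Both rows are annotated as protein-coding, these shares were not tested, and exons of Ctsa overlap those of Pltp and Neurl2 on the opposite strand. Tfeb-204 stood at 1215 rescaled counts in control replicate 1 and at 4 to 30 in the other 5 libraries, beside the uneven Tfeb values given above.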
